A study of Homo sapiens with 2 samples.

Results

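The peaks of a brachyury ChIP-seq experiment that lie on human chromosomes 18, 21 and 22 are described here. Members were taken as all lines of the deposited peak list whose chromosome was 18, 21 or 22. This rule found 317 of 10342 peaks (3.07%), with 161 on chromosome 18, 87 on chromosome 21 and 69 on chromosome 22. Chromatin immunoprecipitation (ChIP), by the study's methods with an antibody against brachyury, was compared with input DNA. Both libraries came from wild-type MDA-MB-231, a breast cancer cell line of human origin. The label of the ChIP library names no antibody, and the library was taken as the ChIP from the name of the peak list. There was 1 library of each kind and no replicate, and the read depth is unknown, so the intervals below reflect counting error alone, with peaks counted as if independent. Positions are those of hg19 (GRCh37), the build that the submitters' processing notes name. On chromosome 21, 5 peaks lay past the last gene that RefSeq places on GRCh38, and none did on chromosomes 18 and 22.

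Brachyury, the founding T-box transcription factor, directs the formation of posterior mesoderm and notochord in the embryo and is made again in some carcinomas, where it is linked to epithelial-mesenchymal transition. A ChIP-seq peak is a stretch of the genome where the immunoprecipitated library holds more reads than the input predicts, and it can lie in genes or far from any. Chromosome 18 is poor in genes for its size, chromosome 22 is rich in them, and chromosome 21 holds few. Chromosomes 21 and 22 are acrocentric, which means that their short arms carry mainly repeats and ribosomal RNA genes and are largely missing from the assembled sequence. The genes used as landmarks below are tumour suppressors or regulators of blood formation that lie on these chromosomes. The bases under the peaks were not analysed here.

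Per Mb, all of these chromosomes carried fewer peaks than the rest of the autosomes, but the shortage was uneven, and the label of sparse chromosomes described their means rather than all of their parts. The short arm of chromosome 18 was among the densest autosomal arms. The last part of chromosome 22 had a similar density, but it was cut with the list known and was not ranked against other stretches. The long arm of chromosome 18 and the first part of chromosome 22 carried few peaks. Chromosome 21 was sparse along almost its whole long arm. These densities were known when the chromosomes were chosen and are a description.

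Density was taken as the number of peaks per Mb from the first to the last peak. Chromosome 18 had 2.21 peaks per Mb (exact Poisson 95% interval 1.88 to 2.58) over 72.9 Mb. Chromosome 21 had 2.28 peaks per Mb (95% interval 1.83 to 2.81) over 38.1 Mb. Chromosome 22 had 1.99 peaks per Mb (95% interval 1.55 to 2.52) over 34.6 Mb. These intervals overlapped one another, so the order of the densities within the group was not resolved. The other 19 autosomes together held 9921 peaks at 3.77 per Mb. Relative to them the density was 0.59-fold on chromosome 18 (exact conditional 95% interval 0.50 to 0.68), 0.60-fold on chromosome 21 (0.48 to 0.75) and 0.53-fold on chromosome 22 (0.41 to 0.67). Of the other small autosomes, chromosome 20 carried 3.99 peaks per Mb (95% interval 3.50 to 4.52). Chromosome 19 carried 2.63 per Mb (2.23 to 3.08), whose interval overlapped those of chromosomes 18, 21 and 22. Larger autosomes overlapped them too, with 2.35 per Mb on chromosome 4 (2.14 to 2.58) and 2.51 on chromosome 7 (2.27 to 2.77). The same held for chromosomes 1, 9 and 15, so a low density was not particular to this group.

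**Figure D1:**
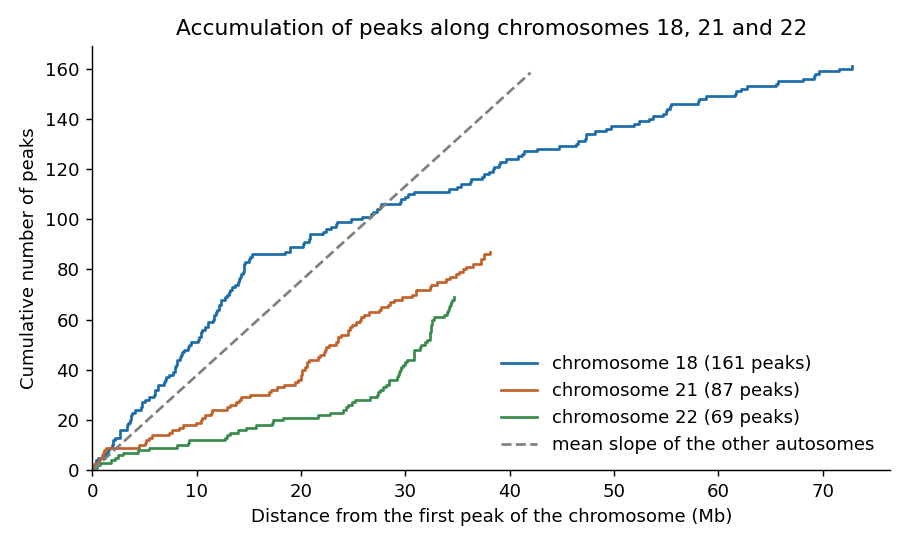
Cumulative number of peaks against the distance in Mb from the first peak, for chromosome 18 (161 peaks), 21 (87) and 22 (69). The dashed line has the slope of the other autosomes, 3.77 peaks per Mb, and a reader should see the steep start of chromosome 18, the steep end of chromosome 22 and the flat stretches between.

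Chromosome 18 was then divided at its centromere, set at 17 Mb. The short arm held 86 peaks between 49840 and 15353063, that is 5.62 per Mb (95% interval 4.50 to 6.94). The long arm held 75 peaks between 18570738 and 72900759, that is 1.38 per Mb (1.09 to 1.73). The short arm thus held 53.4% of the peaks, and its density was 4.07 times that of the long arm (exact conditional 95% interval 2.95 to 5.62). Among the 39 arms of autosomes with at least 10 peaks, the short arm of chromosome 18 ranked 3 from the densest and the long arm ranked 2 from the sparsest.

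The same ratio was computed on the 17 autosomes with at least 10 peaks on the short arm. Its interval excluded 1 on 12 of them (70.6%), so unequal arms were common. Chromosome 18 had the highest ratio in favour of the short arm, followed by chromosome 7 with 2.51 (2.04 to 3.08), and these intervals overlapped slightly. On chromosome 8 the ratio was 0.099 (0.064 to 0.15), a larger contrast with the dense side on the long arm.

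**Figure D2:**
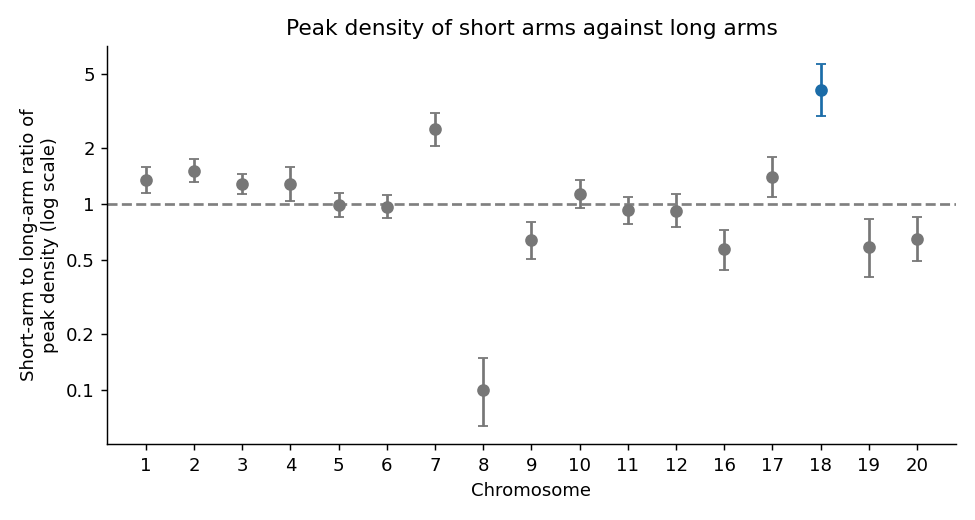
Ratio of the peak density of the short arm to that of the long arm (log axis) for the 17 autosomes with at least 10 short-arm peaks. Bars are exact conditional 95% intervals and the dashed line marks equal arms. Chromosome 18, in blue, sits highest at 4.07, and chromosome 8 lowest at 0.099.

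Within the short arm of chromosome 18, peaks were spread without a break. In windows of 5 Mb the counts were 27, 24 and 32. In its 15 whole bins of 1 Mb the lowest count was 2, the median 6 and the highest 9, and none was empty. On the long arm 18 of 55 bins (32.7%) were empty, the median bin held 1 peak and the fullest held 5. Windows of 5 Mb from 20 Mb onward held between 2 and 12 peaks, the highest count falling from 35 to 40 Mb. The last peak lay at 72899756 to 72900759, and none was listed from there to the end of the chromosome. That end lies outside the span. It is counted neither in the density of the long arm nor among the peak-free stretches below.

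Chromosome 22 showed the reverse order. Peaks began at 16111658, on the long arm. None was listed on the short arm, but that arm is largely missing from the assembled sequence. With a boundary at 43 Mb, chosen with the list known, the proximal part held 29 peaks at 1.09 per Mb (95% interval 0.73 to 1.57). The distal part held 40 peaks at 5.42 per Mb (3.87 to 7.37) in 7.39 Mb. This span runs from the first to the last peak past the boundary, so the density and its interval depend on the cut. Other boundaries were run for the share of wide peaks only. With the span divided into 4 equal parts, the last contained 59.4% of the peaks and none of the others more than 14.5%. In bins of 1 Mb, 8 of 27 were empty before 43 Mb (29.6%) and none of 8 after it. The distal density overlapped that of the short arm of chromosome 18.

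Chromosome 21 was the most even of the group. Its long arm held 78 peaks at 2.32 per Mb (95% interval 1.83 to 2.89), and only 3 of 35 bins of 1 Mb were empty (8.57%). The windows of 5 Mb from 15 Mb onward held 8, 11, 9, 19, 11, 9 and 9 peaks. The fullest ran from 30 to 35 Mb. The RUNX1 locus begins past it, at 36.16 Mb, in a bin from 36 to 37 Mb that held 1 peak. Of 4 equal parts of the span, the third held most peaks, 37.9%.

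**Figure D3:**
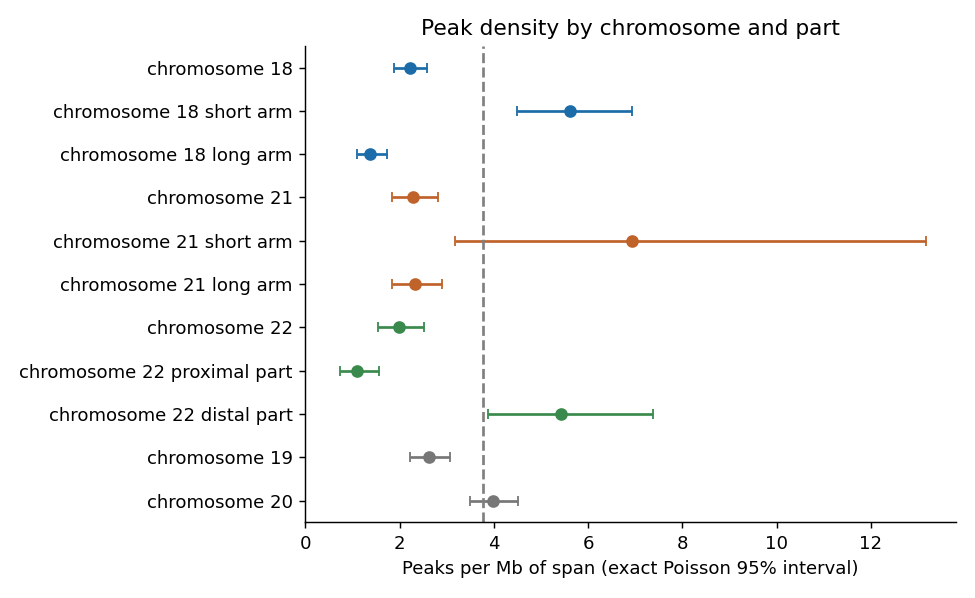
Peaks per Mb of span for chromosomes 18, 21 and 22 and their parts, with chromosomes 19 and 20 beside them. Points are densities, bars exact Poisson 95% intervals, and the dashed line the density of the other autosomes, 3.77 per Mb. The intervals of the short arm of chromosome 18 and of the distal part of chromosome 22 lie above the line. Those of the long arms of 18 and 21 and of the proximal part of 22 lie below it. The boundary between the parts of 22 was chosen with the list known, so the intervals of its parts against the line are a description only.

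The short arm of chromosome 21 differed in width from the long arm. It held 9 peaks between 9890264 and 11186946, next to the centromere, at 6.94 per Mb (95% interval 3.17 to 13.2). Their median width was 1290 bp (95% interval 1048 to 3331), against 903.5 bp (867 to 952) on the long arm and close to the 1248 bp of the distal part of chromosome 22. The widest peak of the chromosome, from 9890264 to 9894463, covered 4200 bp and scored 73.45. It was followed by peaks of 3331 bp from 10619584 (score 67.82), of 3277 bp from 10118471 (score 55.43) and of 2815 bp from 11184132 (score 68.74). All peaks of at least 1500 bp on chromosome 21 were these 4, and the 78 peaks of the long arm held none. Scores stood higher as well, with a median of 70.05 (95% interval 55.43 to 90.49) against 56.81 on the long arm (55.14 to 59.33), intervals that overlapped. A score of 60 was reached by 7 of the 9 peaks (77.8%, Wilson 95% interval 45.3 to 93.7), against 25 of 78 on the long arm (32.1%, 22.7 to 43.04) and 45.7% of the list. The highest score of the chromosome, 101.54, was in this cluster too, at 10948597 to 10949883. The next highest were 92.55 at 45045554 to 45046452, on the long arm, and 90.49 at 9985827 to 9986874, again in the cluster.

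Peak-free stretches were taken as intervals of at least 2 Mb between neighbouring peaks, so chromosome ends past the outermost peaks were left out. Chromosome 18 had 8 such intervals, which took up 29.4% of its span, and chromosome 22 had 3 with 27.6%. Chromosome 21 had only 1, with 8.39%, close to the 9.05% taken up by 60 such intervals on the other autosomes. The longest of chromosome 18 ran over 3.31 Mb from 30928044 to 34241091, in the middle of the long arm. The interval across its centromere came next, with 3.22 Mb from 15353064 to 18570737, and then 2.79 Mb from 58894160 to 61687085. Another 3 of the 8 lay between 55 and 69 Mb, so that 4 of the 8 fell in this segment. The single interval of chromosome 21, 3.20 Mb from 11186947 to 14387956, was the one that crossed its centromere. Its next longest, of 1.82 Mb from 24997766 and 1.63 Mb from 15656007, were below the limit. Gaps in the assembled sequence were not taken out of any interval. Those across centromeres may therefore hold bases where no peak could be called. On chromosome 22 the 3 intervals measured 3.43 Mb from 25422010 to 28853824, 3.37 Mb from 34358277 to 37724924, and 2.75 Mb from 21525672 to 24273393. None of them touched the centromere and all lay before 43 Mb.

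Dense segments were taken as bins of 1 Mb with at least 8 peaks, the first whole number above 2 times the density of all autosomes. Of 2794 bins on autosomes 226 reached it (8.09%). Chromosome 18 had 2 such bins of 73, chromosome 21 none of 40 and chromosome 22 had 1 of 35, shares below that background. These calls depended on the bins, since bins of 2 Mb gave 0 on both chromosome 18 and 22, and bins shifted by 0.5 Mb gave 1 on chromosome 18. On chromosome 18 they lay at 8 to 9 Mb, with 8 peaks of 700 to 2127 bp, and at 14 to 15 Mb, with 9 peaks of 502 to 1422 bp, both on the short arm. The one of chromosome 22 lay at 48 to 49 Mb, with 10 peaks between 48154507 and 48892906. Its peaks were wide, with a median of 1299 bp and 4 of 10 at or over 1500 bp. The dense bins of chromosome 18 had medians of 1038.5 bp at 8 to 9 Mb, with 1 such peak, and 961 bp at 14 to 15 Mb, with none. The density of chromosome 18 was therefore high over its short arm as a whole rather than in a few bins.

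Width and score were not used to choose the peaks and could be compared with the whole list. The median width was 953 bp on chromosome 18 (95% interval 911 to 968), 919 bp on chromosome 21 (878 to 974) and 1052 bp on chromosome 22 (940 to 1208), against 960 bp in the list (956 to 963). A width of at least 1500 bp was found in 5.23% of the list. On chromosome 22 it was found in 15 of 69 peaks (21.7%, Wilson 95% interval 13.6 to 32.8), the highest share of the 22 autosomes. Only chromosomes 8 (17.1%) and 5 (16.1%) came near, with intervals that overlapped that of chromosome 22. Chromosome 18 had 4 of 161 (2.48%, 0.97 to 6.21) and chromosome 21 had 4 of 87 (4.6%, 1.80 to 11.2).

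On chromosome 22 these wide peaks went with the dense part. From 43 Mb onward 14 of 40 peaks reached 1500 bp (35.0%, Wilson 95% interval 22.1 to 50.5), against 1 of 29 before it (3.45%, 0.61 to 17.2). The median width was 1248 bp (95% interval 1076 to 1512) in the distal and 888 bp (829 to 979) in the proximal part. The widest peak measured 2829 bp, at 48518060 to 48520888, and scored 88.5. The next measured 2625 bp, at 50294930 to 50297554, with a score of 101.57, and 2273 bp, at 45883740 to 45886012, with a score of 59.25. The single wide peak of the proximal part was the first of the chromosome, at 16111658 to 16113264, with 1607 bp.

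The short arm of chromosome 18, about as dense, did not share this property. There 3 of 86 peaks reached 1500 bp (3.49%, 1.19 to 9.76), an interval that ends below that of the distal part of chromosome 22. They were 2 neighbours at 7965766 to 7967836 (2071 bp, score 79.67) and at 8001868 to 8003994 (2127 bp, score 109.39), and a peak of 1523 bp at 11648354. The long arm had 1, of 1669 bp at 19004769 to 19006437, with a score of 93.67. Peaks covered 5.57 kb per Mb of the short arm of chromosome 18, 7.37 kb per Mb of the distal part of chromosome 22, and 1.25 and 1.02 kb per Mb of the long arm of 18 and of the proximal part of 22.

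**Figure D4:**
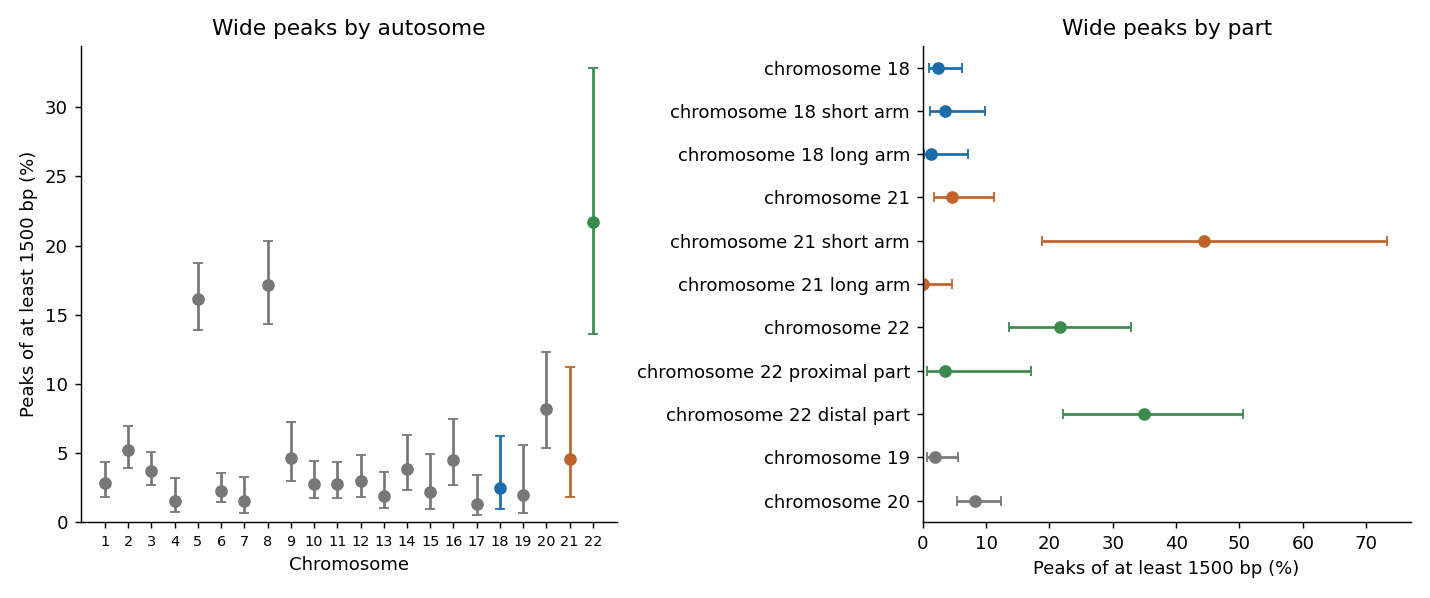
Share of peaks of at least 1500 bp in percent, by autosome on the left and by part on the right. Points are shares and bars Wilson 95% intervals. Chromosome 22 has the highest share, 21.7%, and its distal part reaches 35.0%, the 9 peaks of the short arm of chromosome 21 have a wide interval, and the short arm of chromosome 18 has 3.49%.

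The score that the caller attached to each peak, minus 10 times the log10 p, varied less. Median scores were 58.32 on chromosome 18 (95% interval 56.54 to 60.37), 58.11 on chromosome 21 (55.43 to 59.61) and 57.67 on chromosome 22 (55.54 to 59.20). In the list 45.7% of peaks scored 60 or more, as did 71 peaks of chromosome 18 (44.1%, Wilson 95% interval 36.7 to 51.8). So did 32 peaks of chromosome 21 (36.8%, 27.4 to 47.3) and 23 of chromosome 22 (33.3%, 23.4 to 45.1), the lowest shares of the 22 autosomes, though only the interval of chromosome 22 ended below the share of the list. In the dense part of chromosome 22, 11 of 40 peaks reached 60 (27.5%, 16.1 to 42.8), against 12 of 29 in the proximal part (41.4%, 25.5 to 59.3), and these intervals overlapped. The arms of chromosome 18 had 44.2% and 44.0%. The distal peaks of chromosome 22 were thus wide without higher scores, with a median of 57.6.

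Scores of 100 or more made up 2.92% of the list and belonged to 9 of the 317 peaks, 5 on chromosome 18, 1 on chromosome 21 and 3 on chromosome 22. The highest was 153.24, on chromosome 18, where the peak measured 607 bp and ran from 4178405 to 4179011. It was followed there by 125.54 for a peak of 1399 bp from 10144694 to 10146092, and by the peak of 2127 bp with 109.39, so that the 3 highest all lay on the short arm. On chromosome 22 the highest were 103.19 (485 bp, 29353188 to 29353672), 101.93 (1065 bp, 41271119 to 41272183) and the 101.57 of the second widest peak. The first of these lay in the neighbourhood of NF2.

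Narrow peaks were as common as elsewhere. A width under 700 bp was found in 7.94% of the list, in 14 peaks of chromosome 18 (8.70%, Wilson 95% interval 5.25 to 14.1), in 4 of chromosome 21 (4.6%, 1.80 to 11.2) and in 6 of chromosome 22 (8.70%, 4.05 to 17.7). Of these 24 narrow peaks, 14 carried a score that at least 20 peaks of the list share to the last digit (58.3%, 38.8 to 75.5). In the list 324 of 821 narrow peaks did (39.5%), a share inside that interval. The value 69.82 was found in 5 of them, 77.79 and 86.02 in 3 each and 103.19 in 2. Such scores were held by 13 of the 14 narrow peaks of the sparse parts (the long arms of chromosomes 18 and 21 and the proximal part of 22), and by 1 of the 10 in the dense parts (the short arm of 18 and the distal part of 22). Among the 293 wider peaks 11 did (3.75%, 2.11 to 6.60), against 4.56% in the list. The split of narrow peaks into sparse and dense parts was made with the list known. It was not computed for the list as a whole.

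Neighbouring peaks were separated by a median of 239 kb on chromosome 18, 289 kb on chromosome 21 and 240 kb on chromosome 22, against 158 kb in the list. The medians within parts differed more, with 126 kb on the short arm and 456 kb on the long arm of chromosome 18, and with 750 kb before and 114 kb after 43 Mb on chromosome 22. Only 2 pairs lay less than 1 kb apart. One was on chromosome 18, from 12216190 to 12217418 and from 12217493 to 12218189, with scores of 62.11 and 57.48. The other was on chromosome 22, from 48615446 to 48616709 and from 48617108 to 48618441, with scores of 57.67 and 80.41, inside the dense bin. Chromosome 21 had none.

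The neighbourhoods of SMAD4, RUNX1 and NF2 were then inspected within 2 Mb on either side of each gene. The counts were 7, 12 and 6 peaks. None of the counts stood apart from the density of its own chromosome at this distance. Overlap was checked with these landmark genes alone, and 1 peak lay inside NF2. Whether peaks fell in exons or introns was not analysed here.

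SMAD4 encodes the common partner of the receptor-activated SMAD proteins in TGF-beta and BMP signalling and is a tumour suppressor. It was taken at 48.557 to 48.611 Mb of chromosome 18, on the forward strand, in the sparse long arm, where RefSeq places ELAC1 and MEX3C as its nearest protein-coding neighbours. No peak overlapped it. The nearest peak before it ended at 48233051, 324 kb away, with a score of 52.61, and the nearest after it began at 49279257, 668 kb away, with a score of 64.76, the highest of the 7. The others began at 46641698 (score 63.01), 47298013 (57.18), 47323204 (52.46), 47351412 (55.14) and 49721558 (50.60). The middle 3 of these formed a small group about 1.2 Mb before the gene, and 2 of the 7 scored at least 60. The density of the rest of chromosome 18 predicted 9.07 peaks in this window, a ratio of 0.77 (exact conditional 95% interval 0.31 to 1.63), while the rest of the long arm predicted 5.48, a ratio of 1.28 (0.49 to 2.78). After the last peak of the window, none was listed from 49722555 to 52005753, past the window's end. DCC, the next protein-coding gene but one in the order of RefSeq, encodes a netrin receptor.

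RUNX1 encodes a transcription factor needed for the formation of blood stem cells and is often altered in leukaemia. It was taken at 36.160 to 36.421 Mb of chromosome 21, on the reverse strand, between CLIC6 and SETD4 in the order of protein-coding genes. No peak overlapped its 261 kb. The nearest peak began at 36451159, 30.2 kb past the upstream end of the gene, and had a score of 50.92, almost at the calling limit of 50. On the downstream side the nearest ended at 35921842, 238 kb away, with a score of 61.66. The highest score in the window, 72.94, belonged to a peak from 35580527 to 35581380, and a second peak stood close to it, from 35608297, with 51.75. Downstream of the gene the window held 8 peaks, and 4 lay on the upstream side. Among the 12 peaks 4 scored 60 or more, and widths lay between 745 and 1032 bp. The rest of the chromosome predicted 9.43 peaks, a ratio of 1.27 (exact conditional 95% interval 0.63 to 2.36). This was the fullest of the gene windows, but its interval overlapped those of the others.

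NF2 encodes merlin, a tumour suppressor at the cell cortex that acts through the Hippo pathway. It was taken at 30 to 30.095 Mb of chromosome 22, on the forward strand, between NIPSNAP1 and CABP7. One peak lay inside it, from 30062360 to 30063067, 62.7 kb after the start of the gene, with a width of 708 bp and a score of 60.98. It was the only peak within 600 kb of the gene. The nearest on the left, which ended at 29353672, 646 kb away, was the highest-scoring peak of the whole chromosome, with 103.19 and a width of only 485 bp, the narrowest of the chromosome. Exactly this score was held by 23 peaks of the list. On the right a peak began at 30854953, 760 kb away, with a score of 53.37, and another at 31765671 with 65.87. The other 2 began at 28853825 and 28992415, with scores of 53.59 and 50.85. The rest of chromosome 22 predicted 8.45 peaks, a ratio of 0.71 (exact conditional 95% interval 0.25 to 1.63), and the proximal part alone predicted 4.19, a ratio of 1.43 (0.48 to 3.62). The window took in the end of the stretch of 3.43 Mb without a peak. With windows of 5 Mb on either side, the ratios to the rest of the chromosome were 0.50 at SMAD4 (0.25 to 0.905) and 0.46 at NF2 (0.22 to 0.89), and these intervals end below 1. Against the rest of the same sparse part they were 0.84 (0.41 to 1.57) and 0.998 (0.43 to 2.23), so the low values were not seen within the long arm of chromosome 18 or the proximal part of chromosome 22.

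**Figure D5:**
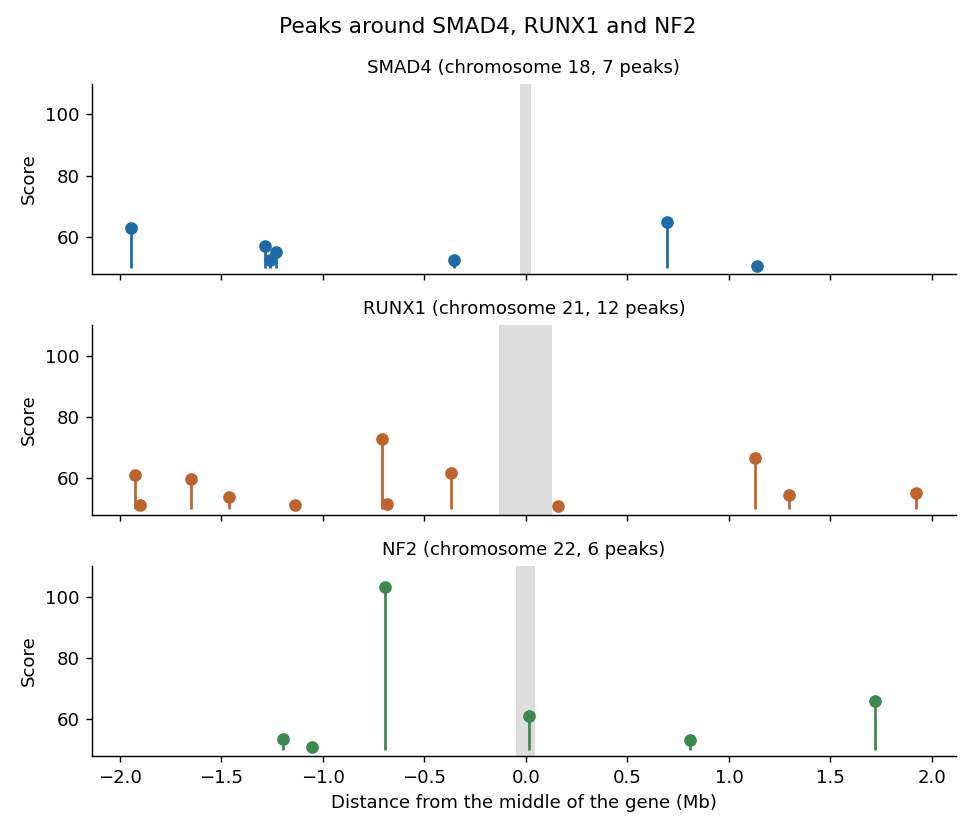
Scores of the peaks within 2 Mb of SMAD4 (7 peaks), RUNX1 (12) and NF2 (6) against the distance of each peak from the middle of the gene in Mb. Stems start at 50, the limit of calling, and grey bands mark the genes. The only peak within a band is the one in NF2 with a score of 60.98, and the highest, 103.19, stands to its left.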

How the data were processed

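ChIP-seq of MDA-MB-231 cells and of input DNA gave 1 peak list, which the authors made by calling the first library against the second. The submitters' processing notes name Bowtie2 2.1.0 and hg19. The record's design text describes RNA profiles of another tissue, goes against the sample labels, and was not used. Peak names give MACS as the caller, without version, and the list name carries a p-value limit of 1e-05 and fold limits of 10 and 30. The deposited score was taken as minus 10 times the log10 p-value, since the lowest was exactly 50. Filtering of duplicates or repeats is not given in the sources used here, and the depth is unknown. No column held per-sample values.

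Members and limits were chosen with earlier results of these data known. Starts were raised by 1 to count from 1, peaks were placed by midpoint, and spans ran from first to last peak, whole or per arm. Arms were divided at the hg19 band boundaries, rounded to whole Mb (17, 13 and 15 for chromosomes 18, 21 and 22). Densities carry exact Poisson intervals, ratios exact conditional (Clopper-Pearson) intervals, shares Wilson intervals and medians order-statistic intervals, all at 95%. No p-value was computed, because peaks of 1 list are not replicates. Gene positions came with the selection rule, and strands and gene order from RefSeq (GRCh38.p14), whose coordinates were not used. Named were the landmark genes with the peaks in their windows, and per chromosome the 3 highest and the widest peaks, the outermost peaks of arms, the 3 longest peak-free stretches and each dense bin. Limits on width of 1500 bp, the boundary at 43 Mb and shared scores were added after the list had been seen. Alternatives included the higher-scoring part of the list, peaks under 1 kb apart merged, spans without intervals over 3 Mb that hold no peak, and other limits. The functions were tested on simulated data. Python 3.11.15, numpy 2.4.6, scipy 1.17.1, pandas 2.3.3 and matplotlib 3.10.9 were used.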

Additional observations from a re-analysis of the deposited data

How the results depend on the processing

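The low densities of chromosomes 18, 21 and 22, the ratio between the arms of chromosome 18, the share of wide peaks on chromosome 22 and the ratios at SMAD4, RUNX1 and NF2 stayed inside their intervals under each alternative run, although in windows of 5 Mb the intervals at SMAD4 and NF2 ended below 1 against the whole chromosome and held 1 against the same part. Limits of 1500 bp, the same-part expectations and the boundary of chromosome 22, with their alternatives, were chosen after seeing the data. Of 72 alternative values 58 stayed in their interval or within 1.5 times the count, 13 moved and 1 turned. The share of peaks at or above a score of 60, relative to the list, was 0.73 on chromosome 22 and turned to 1.49 at a limit of 100, where it rests on 3 peaks. On chromosome 21 it moved from 0.81 to 0.39, with 1 peak. At a width limit of 600 bp the relative share of narrow peaks on chromosome 18 moved from 1.1 to 0.47, and at 2000 bp that of wide peaks on chromosome 21 rose from 0.88 to 3.42, all 4 of them on its short arm. Dense segments depended on the bins and on the limit, which was 15 peaks in bins of 2 Mb and 4 in the upper part by score. Chromosome 18 had 2, against 0 in bins of 2 Mb, 1 in shifted bins and 4 in the upper part by score. Chromosome 21 had 0 and 1 in the upper part, and chromosome 22 had 1 and 0 in bins of 2 Mb. Peak-free stretches of at least 1 Mb numbered 22, 7 and 11 on chromosomes 18, 21 and 22, and chromosome 18 had 2 of at least 3 Mb, which follows from the limits. In the upper part, with fewer peaks, chromosome 21 had 5 of at least 2 Mb. No paired analysis was possible because the list is 1 call on 1 library of each kind. The missing replicates and the unknown depth limit each score and position.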
